A study of Mus musculus with 6 samples.

Results

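The translation initiation and elongation factors were examined in mouse liver RNA-seq, as the protein-coding genes whose symbols start with Eif1 to Eif6, Eef1 or Eef2, without the eIF2 kinase genes (Eif2ak) and Eif4enif1. This name rule found 63 genes among the 54532 genes of the count table. Enough reads for a test were present for 59 of them, and Eef1a2, Eef1akmt3, Eif4e1b and Eif5a2 did not pass the filter on low counts. Livers came from wild-type male C57BL/6J mice that entered the study at 8 weeks of age. The HFD group (replicates 1 to 3) ate a high-fat diet throughout, for 4 weeks and then another 4 weeks. The HFD+allantoin group (replicates 4 to 6) ate the same diet and drank water with allantoin, a product of uric acid oxidation, during the last 4 weeks. The study used 0.06 and 0.3 mg/mL of allantoin, and the dose of these libraries, 0.3 mg/mL, was taken from the paper, since the labels give none for the single libraries. Each library was 1 liver, and chow-fed mice were not analysed here.

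Translation of most mRNAs starts when eIF4E binds the cap, eIF4G bridges the cap to the ribosome and the helicase eIF4A opens the leader. The small ribosomal subunit, carrying eIF1, eIF1A, eIF3, eIF5 and the eIF2 complex with its initiator tRNA, then scans to the start codon, where eIF5B joins the large subunit. In elongation eEF1A delivers each aminoacyl-tRNA, the eEF1B subunits reload eEF1A with GTP, and eEF2 moves the ribosome on by a codon. In liver this machinery makes the plasma proteins, and it is adjusted to nutrients by mTORC1, through the eIF4E-binding proteins and eEF2 kinase, and to stress by phosphorylation of eIF2, which blocks its exchange factor eIF2B.

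The libraries held 11326372 to 14601457 counts. Counts of the mitochondrial chromosome made up 17.9% to 36.4% of an HFD library and 6.90% to 11.3% of an HFD+allantoin library, and the TMM factors, which correct for such differences in composition, ran from 0.756 to 0.951 and from 1.12 to 1.19. The hepatocyte markers (Alb, Apoa1, Ttr, Apob, Cps1, Hnf4a) summed to 85276 to 87226 CPM (counts scaled to a common library size) in the HFD group and to 71570 to 100955 CPM in the HFD+allantoin group. Of these 6, Apob and Cps1 were called higher (log2 0.92 and 1.05) and Apoa1 and Ttr lower (log2 -1.23 and -0.79). All 6 stellate cell markers were called higher (summed level 134 to 204 CPM in HFD, 347 to 398 CPM in HFD+allantoin), as were 3 of 6 macrophage markers (102 to 242 and 293 to 331 CPM). Of the 6 endothelial markers (64.5 to 113 and 101 to 159 CPM) edgeR called 0, with 3 at an unadjusted p under 0.05, DESeq2 called 2 and limma-voom 1. The erythroid markers summed to 319 to 1288 CPM and 858 to 1032 CPM, and the adipose markers to 60.2 to 234 CPM and 35.6 to 82.2 CPM. HFD replicate 2 stood apart in the adipose markers, with 520 counts of Adipoq, 498 of Plin1 and 115 of Lep, beside 0 or 1 in every other library. The cholangiocyte markers summed to 34.3 to 159 CPM and 21.7 to 76.7 CPM. Of their 3 tested genes edgeR called 1, Sox9, lower (log2 -3.17, adjusted p = 0.00735). HFD replicate 3 had 521 counts of Sox9, beside 119 and 84 in HFD replicates 1 and 2 and 31 to 47 in HFD+allantoin libraries. Spp1 had 1311 counts in HFD replicate 3, but also 1081 in HFD+allantoin replicate 6. The part of other cells, of the mitochondrial share or of the scaling in the factor gene differences was not tested. Leaving the mitochondrial chromosome out kept all 17 calls given below. With TMM scaling this step hardly alters the fit (the median of all tested genes moved by -0.00025), so it is no test of that share.

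At an adjusted p under 0.05 in edgeR's quasi-likelihood test over 12795 genes, 10 factor genes were higher and 7 were lower in HFD+allantoin than in HFD livers, and 42 did not pass. The 10 genes make 16.9% of the 59 tested, beside 11.3% of all tested genes called higher, and the 7 genes make 11.9%, beside 13% of all tested genes called lower. In either direction 17 factor genes were called, 28.8% beside 24.3%, so the counts lay near the background and nothing particular to these factors was read from them. Scaling by library size alone moved the median of all tested genes up by 0.41 (log2). It gave 14 genes higher and 1 lower, while 24.7% of all tested genes were then called higher and 5.27% lower. The calls of Eef1d, Eif1, Eif1b, Eif2b1, Eif3k and Eif4g3 were lost under it (adjusted p 0.114 to 0.626). Without HFD replicate 1, the library with the highest mitochondrial share, 8 genes were higher and 6 lower, beside 9.27% and 10.2% of all genes. Without HFD replicate 2, the library with the adipose transcripts, the counts were also 8 and 6, beside 9.83% and 12.5%. Without HFD replicate 3, the library with the most Sox9 counts, they were 12 and 8, beside 13.4% and 15.2%. Without HFD+allantoin replicate 4, 5 or 6 the counts were 2 and 1, 1 and 1, and 6 and 3. Over all genes 4.51%, 3.48% and 5.31% were then called higher, and 5.29%, 4.27% and 6.29% lower. The 3 CPM values of the groups did not overlap for 17 higher and 13 lower factor genes. Together these are 50.8% of the 59, beside 44.3% of all tested genes, of which 22.4% lay higher and 21.9% lower. The median log2 fold change of the factor genes was 0.13, and that of all tested genes was -0.03. The factor genes thus moved both ways, from -1.31 for Eif5b to 1.65 for Eif2s3x on the log2 scale, and genes of both directions stood within the same complexes. In bulk tissue a smaller share of expressing cells and less RNA per cell cannot be told apart.

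**Figure D1:**
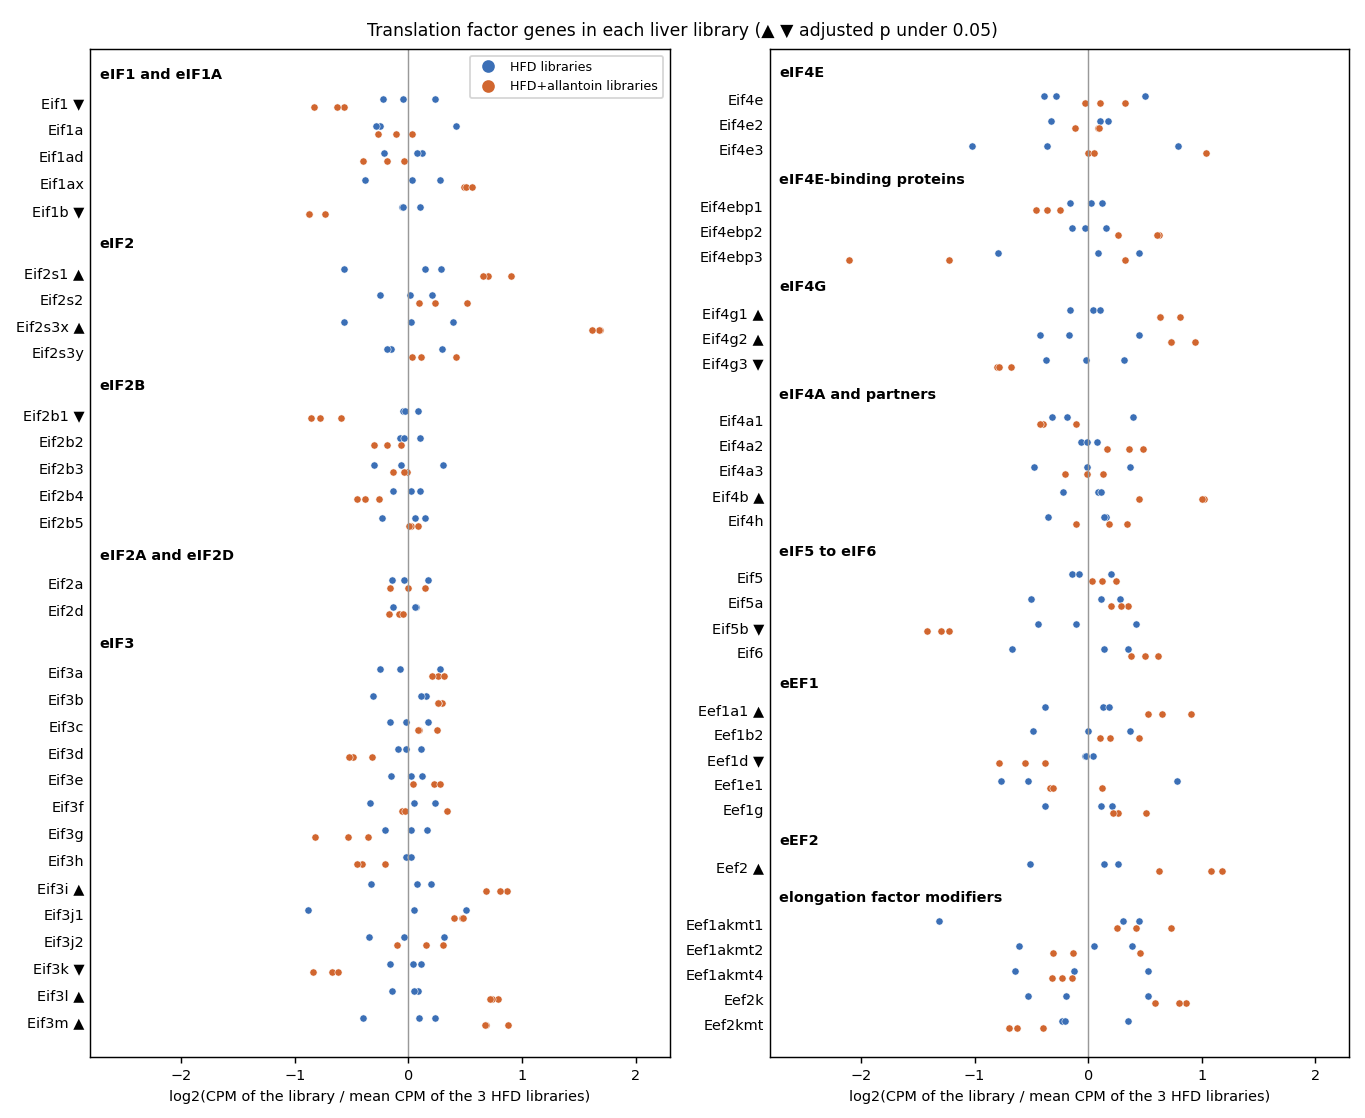
Level of the 59 tested factor genes in each library, as log2 of its CPM over the mean CPM of the 3 HFD libraries (x axis), by factor group (rows), with HFD libraries in blue and HFD+allantoin libraries in orange. Triangles mark the 10 genes called higher and the 7 called lower, and both kinds stand within eEF1, eIF3 and eIF4G.

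Levels were compared between genes per length, in CPM per kilobase of the longest basic protein-coding transcript. Eef1a1, the gene of the main tRNA-delivering elongation factor, led in both groups with 1353 ± 271 (SD, n = 3) in HFD and 2199 ± 297 in HFD+allantoin livers. In HFD livers Eif1, which guards start codon choice, followed with 280 ± 45.8, then Eef2 with 234 ± 61.8, Eif4a1 with 168 ± 46.3 and Eif5a, which eases stalled peptide bonds, with 139 ± 37.0. From Eif1 down, the values of neighbours in this order overlapped over the 3 HFD libraries (239 to 329 for Eif1, 164 to 281 for Eef2, 135 to 221 for Eif4a1 and 98.1 to 169 for Eif5a). The order depends on the length used: with the median length of a gene's protein-coding transcripts, Eef1a1 reached 2826 CPM per kilobase in HFD livers and Eif4g2 stood 3rd, at 377 instead of 35.5. In HFD+allantoin livers Eef2 (462 ± 90.4) stood above Eif1 (176 ± 16.2), with no overlap between libraries. Eef2k, Eif3j2 and Eif4ebp3 had the lowest levels of the 59 tested genes in HFD livers, at 0.533, 0.851 and 1.27 CPM per kilobase. Of the 4 untested genes, Eef1a2, the muscle and neuron form of eEF1A, had 13 counts in HFD replicate 2 and 0 in the other libraries. Eif5a2 had 4 counts in HFD replicate 2 and 5, 9 and 3 in HFD+allantoin replicates 4 to 6. Eef1akmt3 had 1 count in all libraries together, and Eif4e1b, known from oocytes, had 0.

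**Figure D2:**
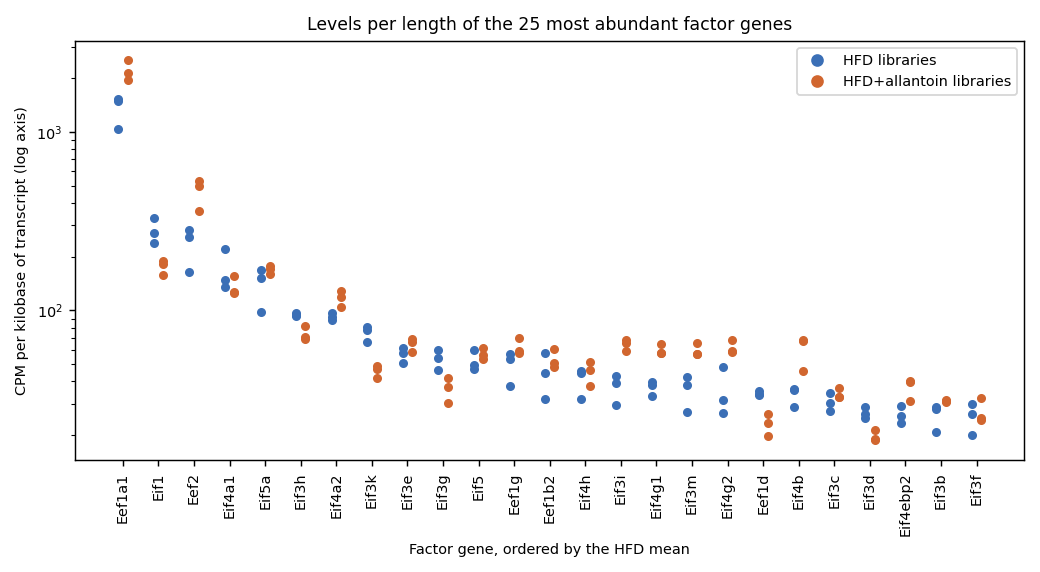
Level per length of the 25 most abundant factor genes, in CPM per kilobase of transcript on a log axis, ordered by the HFD mean, with 1 point per library. Eef1a1 stood above all others in every library, and Eef2 and Eif1 changed places between the groups.

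Many mRNAs of the translation machinery begin with a C followed by a run of pyrimidines, the 5′ terminal oligopyrimidine tract, through which mTORC1 and LARP1 control their use. RefSeq promoter sequence (GRCm38.p6) was available for 47 of the 63 genes, and a C followed by at least 4 bases that are each C or T was looked for on the sense strand. The run had to begin in the window from 15 bases before the annotated start to 15 after, and could extend past its end. Such a run began in 18 of 47 windows (38.3%), beside 44.1% of 27025 genes of the table. The start base was itself a C followed by at least 4 such bases in 2 of 47 (4.26%), beside 3.01%, a narrower setting chosen after the data were seen. Counted from the first C of the whole pyrimidine stretch, the run began within 2 bases of the start in 5 of 47 (10.6%), beside 8.56%, also a later choice. A match is a description of these letters, not of a site in use. The windows below are shown for the genes with the largest increase and its Y-linked partner, for the most abundant factor, for 3 further genes whose run covers the start or begins at the next base, and for 3 genes called lower whose windows hold none. Capitals mark the run from the first C of its pyrimidine stretch, and the annotated start is base 16 of each 30-base window.
Eif2s3x (chrX:94212637-94212666, minus strand): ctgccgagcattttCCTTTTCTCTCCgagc
Eif2s3y (chrY:1010580-1010609, plus strand): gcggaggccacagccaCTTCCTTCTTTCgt
Eef1a1 (chr9:78481710-78481739, minus strand): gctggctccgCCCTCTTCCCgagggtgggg
Eif3l (chr15:79075208-79075237, plus strand): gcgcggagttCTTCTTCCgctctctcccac
Eif3f (chr7:108934400-108934429, plus strand): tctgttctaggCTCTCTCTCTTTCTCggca
Eif4g1 (chr16:20672712-20672741, plus strand): cgccagcgcagctccgCCCTCTgcgccggt
Eif1 (chr11:100319934-100319963, plus strand): gcgctggcgtcacaggggcggctatataag
Eif1b (chr9:120492591-120492620, plus strand): gcggcgcgcggggctaaatacgcggcgccg
Eif5b (chr1:37997995-37998024, plus strand): ggcgcctgggttcccacctggccggcggct
The run of Eif2s3x spans 12 bases and begins at the base before the start, and that of Eif2s3y also spans 12 bases and begins at the base after it. Both partners thus carry the run, although 1 of them was called higher and the other was not. The printed windows were picked, so they do not show how runs go with direction. Eef2, Eif2s1 and Eif3m were called higher and have no run in their windows. Eif3k was called lower and has a run, which begins 13 bases after the start and extends past the window. A run began in 5 of 8 windows of genes called higher, 1 of 6 called lower (Eif3k) and 11 of 31 not called, which was not tested. The windows follow RefSeq starts, which can differ from the starts in the annotation used for counting genes. RefSeq starts can also differ from the starts used in these livers, which were not mapped. A window with or without a run thus does not show whether the mRNA of that gene begins with such a tract.

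Both central genes of elongation, Eef1a1 and Eef2, rose, while a subunit of the exchange factor fell. The 11 tested Eef genes summed to 2642, 3779 and 3968 CPM in HFD replicates 1 to 3. In HFD+allantoin replicates 4 to 6 they summed to 6532, 5647 and 4902 CPM, without overlap. Most of each sum came from Eef1a1 and Eef2, so it mainly restates these genes. Eef1a1 stood at 1870, 2661 and 2753 CPM in HFD and at 4536, 3804 and 3498 CPM in HFD+allantoin livers, a 1.63-fold difference (log2 0.70 ± 0.22 SE, adjusted p = 0.0455). Eef2, the translocation factor, stood at 506, 795 and 867 CPM and at 1638, 1533 and 1111 CPM, 1.97-fold higher (log2 0.98 ± 0.25, adjusted p = 0.0223). For both genes HFD replicate 1 was the lowest library, and every HFD+allantoin library lay above every HFD library. Eef1d, the delta subunit of the exchange factor eEF1B, fell from 101, 96.0 and 96.5 CPM to 75.1, 66.3 and 56.6 CPM (log2 -0.57 ± 0.16, adjusted p = 0.0345). The other eEF1B subunits differed from it, with log2 0.26 ± 0.23 for Eef1b2 (adjusted p = 0.437) and 0.34 ± 0.19 for Eef1g (adjusted p = 0.234), neither past the test. Eef1e1, a scaffold of the tRNA synthetase complex, ranged from 7.21 to 21.2 CPM in HFD and from 9.75 to 13.4 CPM in HFD+allantoin livers. The calls of Eef1a1 and Eef1d were lost when any library but HFD replicate 3 was left out (adjusted p 0.0636 to 0.156 and 0.0530 to 0.133), and that of Eef2 without HFD+allantoin replicate 4 or 5 (adjusted p = 0.0858 and 0.0861). Upper-quartile scaling also ended the call of Eef1a1 (adjusted p = 0.0533), and leaving out the low-count filter that of Eef1d (adjusted p = 0.0766).

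The enzymes that modify elongation factors were expressed at low levels, and 0 of the 5 tested passed in edgeR, DESeq2 or limma-voom, with 2 at an unadjusted p under 0.05 in edgeR. Eef2k, the kinase that inactivates eEF2, stood at 3.06, 5.04 and 2.42 CPM in HFD and at 6.38, 6.09 and 5.26 CPM in HFD+allantoin livers (log2 0.76 ± 0.33, adjusted p = 0.128). Its groups did not overlap, but without HFD replicate 2 it was called (log2 1.11, adjusted p = 0.0428). The eEF2 lysine methyltransferase Eef2kmt, singled out after its values were seen, ranged from 8.59 to 12.9 CPM and from 6.23 to 7.63 CPM (log2 -0.56 ± 0.24, adjusted p = 0.122), without overlap either. The eEF1A lysine methyltransferases Eef1akmt1, Eef1akmt2 and Eef1akmt4 stayed under 7 CPM in all libraries, with overlapping groups.

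Of the 5 genes with symbols starting with Eif1, grouped here by name with the scanning factors eIF1 and eIF1A, 2 fell. In edgeR, DESeq2 or limma-voom 0 of the 5 rose, with 1 higher at an unadjusted p under 0.05 in edgeR (Eif1ax). Eif1 fell from 316, 358 and 435 CPM in HFD to 249, 239 and 208 CPM in HFD+allantoin livers (log2 -0.67 ± 0.18, adjusted p = 0.0267). Its paralog Eif1b fell from 23.8, 21.2 and 21.4 CPM to 12.1, 12.1 and 13.3 CPM (log2 -0.83 ± 0.16, adjusted p = 0.00919). Both genes of the eIF1 protein family thus lay lower in every HFD+allantoin library. Eif1ax, the X-linked eIF1A gene, singled out after its values were seen, stood at 17.5, 23.3 and 27.8 CPM and at 32.1, 32.5 and 33.7 CPM (log2 0.52 ± 0.19, adjusted p = 0.078), and Eif1a and Eif1ad had overlapping groups. Eif1 and Eif1b have short transcripts, of 1322 and 1035 bases, and after correction of each library for transcript length and GC content their calls were lost (log2 -0.51 and -0.50, adjusted p = 0.0572 and 0.0571). They were also lost without HFD+allantoin replicate 4 or 5, and for Eif1 also without replicate 6 (adjusted p 0.0801 to 0.101 for Eif1, 0.0512 and 0.0556 for Eif1b).

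Within eIF2, the GTPase complex that brings the initiator tRNA, 2 of 4 genes rose. Eif2s3x, the X-linked gene of its GTP-binding gamma subunit, stood at 8.73, 13.1 and 17.0 CPM in HFD and at 41.7, 41.3 and 39.6 CPM in HFD+allantoin livers, 3.15-fold higher (log2 1.65 ± 0.23, adjusted p = 0.00389). This was the largest increase among the factor genes tested, and the lowest HFD+allantoin library lay above the highest HFD library. Eif2s3y, the Y-linked gene of the same subunit, stood at 34.3, 33.4 and 46.7 CPM and at 41.3, 38.9 and 50.9 CPM (log2 0.19 ± 0.19, adjusted p = 0.49), with overlapping groups. Eif2s1, the alpha subunit that the stress kinases phosphorylate, rose from 13.5, 22.2 and 24.4 CPM to 32.6, 31.5 and 37.6 CPM (log2 0.75 ± 0.23, adjusted p = 0.0407). Eif2s2, the beta subunit, was at log2 0.29 ± 0.19 (adjusted p = 0.28), and its groups overlapped. Eif2s3x was called in all 15 alternative fits, with log2 fold changes from 1.44 to 2.04. The call of Eif2s1 was lost without any library but HFD replicate 3 (adjusted p 0.0506 to 0.132) and with the length and GC trend taken out (adjusted p = 0.0667).

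The exchange factor eIF2B, which reloads eIF2 with GTP, had a summed level of 134, 137 and 141 CPM in HFD and of 112, 114 and 112 CPM in HFD+allantoin livers, the opposite order to eIF2 (109, 131 and 160 CPM, then 189, 178 and 217 CPM). Neither sum was tested. Eif2b1, a regulatory subunit, was the only eIF2B gene that passed the test, and it fell from 38.1, 34.8 and 35.3 CPM to 19.9, 21.1 and 23.8 CPM (log2 -0.74 ± 0.15, adjusted p = 0.011). Its call was lost without HFD+allantoin replicate 4 or 5 (adjusted p = 0.0656 and 0.0637). Eif2b4, singled out after its values were seen, also had groups without overlap (37.3 to 44.1 and 30.03 to 34.3 CPM, log2 -0.36 ± 0.15, adjusted p = 0.113). Eif2b5, the catalytic subunit, stood at 30.02, 36.6 and 39.0 CPM and at 35.7, 37.4 and 35.3 CPM, a log2 difference of 0.04 ± 0.16 (adjusted p = 0.891). Eif2b2 and Eif2b3 overlapped between the groups, as did Eif2a and Eif2d, which can deliver tRNA without eIF2.

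eIF3, the largest initiation factor, holds the scanning complex together, and its 14 genes did not move as a block: 3 rose, 1 fell and 10 did not pass the test (median log2 0.16). Eif3i rose from 33.3, 44.1 and 48.0 CPM in HFD to 76.2, 73.3 and 67.0 CPM in HFD+allantoin livers (log2 0.79 ± 0.18, adjusted p = 0.0152). Eif3l rose from 38.9, 45.5 and 44.5 CPM to 74.2, 71.6 and 70.6 CPM (log2 0.75 ± 0.15, adjusted p = 0.00938). Eif3m rose from 34.7, 49.0 and 54.1 CPM to 73.5, 73.4 and 84.1 CPM (log2 0.74 ± 0.19, adjusted p = 0.0248). These genes code for subunits of different places in the complex, Eif3i for the module with the b and g subunits, Eif3l and Eif3m for subunits of the core. Eif3k, whose protein pairs with that of Eif3l at the edge of the complex, fell from 73.6, 70.2 and 60.8 CPM to 42.7, 44.3 and 38.1 CPM (log2 -0.71 ± 0.16, adjusted p = 0.0137). Eif3a, the scaffold subunit, stood at 91.8, 81.1 and 117 CPM and at 116, 120 and 112 CPM (log2 0.26 ± 0.18, adjusted p = 0.305). Among the genes that did not pass, Eif3d, Eif3g and Eif3h lay lower and Eif3b higher in all HFD+allantoin libraries, with log2 fold changes of -0.44 ± 0.15, -0.56 ± 0.18, -0.35 ± 0.15 and 0.27 ± 0.17. They were singled out after their values were seen. Summed over the complex, the level was 811, 921 and 949 CPM in HFD and 1006, 955 and 961 CPM in HFD+allantoin livers. Every HFD+allantoin sum thus lay above every HFD sum, by a narrow margin, while single subunits shifted in opposite directions. The sum was not tested. Without HFD+allantoin replicate 5 the calls of Eif3i, Eif3l, Eif3m and Eif3k were lost (adjusted p 0.05001 to 0.0782), without replicate 4 those of all but Eif3l (0.0639 to 0.0724), and without replicate 6 those of Eif3m and Eif3k (0.0919 and 0.0661). With the length and GC trend taken out Eif3i reached log2 1.05 (adjusted p = 0.00584), whereas Eif3k came to -0.32 (adjusted p = 0.13).

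The eIF4G scaffolds all passed the test, in opposite directions. Eif4g1, the main bridge between cap and ribosome, rose from 187, 216 and 225 CPM in HFD to 325, 367 and 324 CPM in HFD+allantoin livers (log2 0.69 ± 0.16, adjusted p = 0.0156). Eif4g2, also known as DAP5, which lacks the eIF4E-binding part, rose from 212, 251 and 387 CPM to 469, 471 and 544 CPM (log2 0.80 ± 0.23, adjusted p = 0.0368). Eif4g3, the less abundant paralog of Eif4g1, fell from 81.2, 50.7 and 64.4 CPM to 37.5, 38.0 and 40.8 CPM (log2 -0.75 ± 0.19, adjusted p = 0.0234). No library of either group crossed into the other for any of these genes. The calls were lost without HFD+allantoin replicate 4 or 5 for Eif4g1 (adjusted p = 0.057 and 0.0817) and without any of replicates 4 to 6 for Eif4g3 (0.0709 to 0.1003). That of Eif4g2 was lost without any library but HFD replicate 3 (0.0787 to 0.113) and with the length and GC trend taken out (log2 0.54, adjusted p = 0.0935).

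Of the helicase eIF4A and its partners, 1 of 5 genes passed the test. Eif4b, which stimulates eIF4A, rose from 111, 138 and 141 CPM in HFD to 264, 261 and 177 CPM in HFD+allantoin livers (log2 0.85 ± 0.20, adjusted p = 0.0181), with HFD+allantoin replicate 6 the lowest of its group. The call was lost without HFD+allantoin replicate 4 or 5 (adjusted p = 0.0778 and 0.0841). Eif4a1 stood at 239, 262 and 391 CPM and at 225, 222 and 275 CPM (log2 -0.30 ± 0.22, adjusted p = 0.332), with overlapping groups. Its paralog Eif4a2 stood at 239, 248 and 263 CPM and at 322, 350 and 281 CPM (log2 0.34 ± 0.16, adjusted p = 0.142), without overlap. Eif4a3, a part of the exon junction complex, and Eif4h, a relative of Eif4b, overlapped between the groups.

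No cap-binding gene (0 of 3) or eIF4E-binding protein gene (0 of 3) passed edgeR's test, with 0 and 2 at an unadjusted p under 0.05. limma-voom called 0 of them, and DESeq2 called 1, Eif4ebp2. Eif4e, the cap-binding protein itself, stood at 32.1, 29.9 and 55.3 CPM in HFD and at 41.9, 38.3 and 48.9 CPM in HFD+allantoin livers (log2 0.14 ± 0.25, adjusted p = 0.72). Eif4e2 and Eif4e3 overlapped as well. The binding proteins block eIF4E until mTORC1 phosphorylates them. Eif4ebp1 stood at 51.4, 48.3 and 42.4 CPM and at 39.9, 36.9 and 34.5 CPM (log2 -0.35 ± 0.16, adjusted p = 0.127). Eif4ebp2 stood at 168, 136 and 148 CPM and at 232, 230 and 181 CPM (log2 0.51 ± 0.17, adjusted p = 0.0611). The libraries of the groups were thus separate for both genes, in opposite directions, and Eif4ebp2 was called by DESeq2 (adjusted p = 0.0306) and by edgeR without HFD replicate 1 (adjusted p = 0.0473). Eif4ebp3 had 3 to 20 counts in a library and overlapping groups (log2 -0.62 ± 0.68, adjusted p = 0.54).

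Among the late initiation factors, Eif5b fell and the others did not pass the test. Eif5b, the GTPase that joins the large ribosomal subunit, stood at 240, 132 and 166 CPM in HFD and at 76.8, 66.9 and 73.2 CPM in HFD+allantoin livers, with a fitted ratio of 0.403 (log2 -1.31 ± 0.23, adjusted p = 0.00599). HFD replicate 1 was the highest library, and without it the gene was still called (log2 -1.05, adjusted p = 0.00825). Over all 15 alternatives, each of which called it, the log2 fold change ran from -1.58 to -0.87. Eif5, which triggers GTP hydrolysis by eIF2, stood at 191, 199 and 243 CPM and at 250, 229 and 216 CPM (log2 0.13 ± 0.16, adjusted p = 0.588). Eif5a stood at 141, 217 and 243 CPM and at 256, 244 and 230 CPM (log2 0.28 ± 0.21, adjusted p = 0.362). Eif6, which keeps the ribosomal subunits apart, stood at 21.7, 38.0 and 44.0 CPM and at 52.9, 49.0 and 44.8 CPM (log2 0.50 ± 0.25, adjusted p = 0.169), separate by a narrow margin.

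Ratios of counts between factor genes of the same library do not depend on the scaling between libraries. The pairs below were chosen after their values were seen, as paralogs or partner subunits, so the ratios are given without a test, and with 3 mice per group an exact permutation test could not go below p = 0.1. Eif4g1 had 2.297, 4.26 and 3.49 counts for each count of Eif4g3 in HFD and 8.65, 9.66 and 7.93 in HFD+allantoin livers. The ratio of Eif4g2 to Eif4g3 was 2.61, 4.96 and 6.02, and then 12.5, 12.4 and 13.3. Eif3l to Eif3k gave 0.528, 0.648 and 0.732, and then 1.74, 1.62 and 1.85. Counts are not levels, since these transcripts differ in length. Per kilobase of the longest transcript Eif3k stayed above Eif3l in HFD+allantoin livers, at 46.9, 48.7 and 42.0 CPM beside 38.2, 36.9 and 36.4 CPM. For the X-linked and Y-linked genes of the eIF2 gamma subunit, Eif2s3x to Eif2s3y was 0.255, 0.393 and 0.363 in HFD and 1.01, 1.06 and 0.779 in HFD+allantoin livers. Eif2s3x thus went from a minority of the counts of this subunit to about as many counts as Eif2s3y. Per kilobase of the longest transcript Eif2s3x stayed lower, at a mean of 11.2 CPM beside 23.8 CPM in HFD+allantoin livers. The ratio of Eif4ebp2 to Eif4ebp1 was 3.27, 2.82 and 3.49, and then 5.82, 6.22 and 5.24. The ratio of Eif4a2 to Eif4a1 was 1.003, 0.948 and 0.673, and then 1.43, 1.58 and 1.02, with a narrow gap between the groups. A ratio shows unequal change of the partners, not which of them changed. It is also not free of the trend with transcript length described below. The first gene has the longer transcript in the pairs of Eif3l, Eif2s3x, Eif4ebp2 and Eif4a2, and the shorter one in both eIF4G pairs. The part of length in the ratios was not tested.

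**Figure D3:**
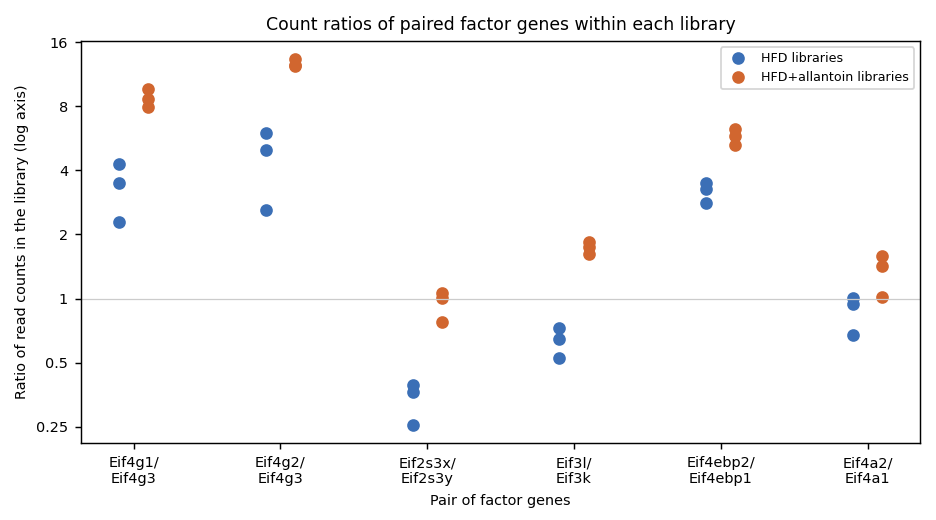
Ratio of read counts of pairs of factor genes within each library (log axis), for HFD libraries in blue and HFD+allantoin libraries in orange. The libraries of the groups were separate for all 6 pairs, widely for Eif4g1 over Eif4g3 (2.297 to 4.26 against 7.93 to 9.66) and narrowly for Eif4a2 over Eif4a1.

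Transcript length was noted because the fold changes of all genes went with it. Over 12792 tested genes with a length, Spearman's rho of length and log2 fold change was 0.24, and over the 59 factor genes it was 0.28, where genes share libraries and are not replicates. The shortest decile of all tested genes, up to 1075 bases, had a median log2 fold change of -0.60, and the longest decile, from 6537 bases, 0.16. The tested factor genes ran from 744 to 8134 bases, and the 24 under 2000 bases had a median of 0.01 with 4 called higher and 3 lower, beside 0.14 with 6 and 4 for the 35 longer ones. The short genes Eif3k (909 bases) and Eif1b (1035 bases) lay near the median of their decile, at log2 -0.71 and -0.83. Other called genes went against the trend of their length. Eef1a1 (1794 bases) and Eif3l (1942 bases) rose although their decile had a median of -0.14. Eif3i (1123 bases) and Eif3m (1283 bases) rose although their decile had a median of -0.21, and Eif5b (7797 bases) and Eif4g3 (8134 bases) fell although theirs had 0.16. After the correction for length and GC content, 12 of the 17 calls were kept, among them these last 4, with log2 fold changes of 1.05, 0.84, -1.58 and -0.91. The 5 lost calls were those of Eif1, Eif1b, Eif3k, Eif2s1 and Eif4g2.

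**Figure D4:**
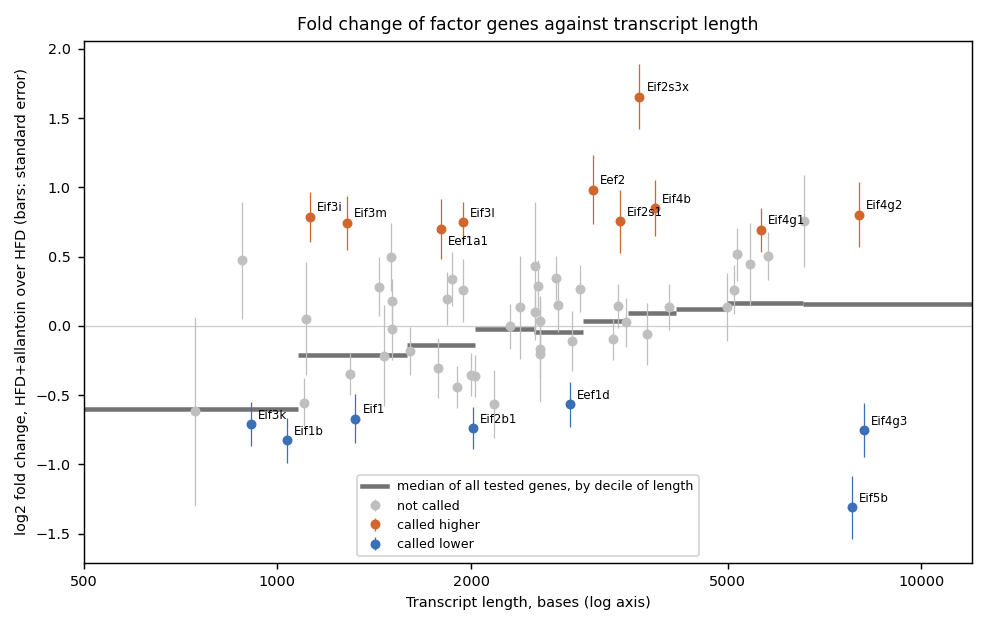
Log2 fold change of HFD+allantoin over HFD (y axis, bars are standard errors) against transcript length in bases (log axis) for the 59 tested factor genes, with genes called higher in orange, called lower in blue and the rest in grey. Grey lines give the median of all tested genes in each decile of length, from -0.60 to 0.16. Of the called genes, Eif5b, Eif4g3, Eif3i, Eif3m, Eef1a1 and Eif3l lie on the other side of 0 from the line at their length.

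A list of 52 other genes held regulators and modifying enzymes of these factors, and also genes of scanning, recycling, termination and mitochondrial translation. Of these, 51 were tested: 6 were called higher (11.8%, beside 11.3% of all tested genes) and 2 lower (3.92%, beside 13%). Their median on the log2 scale was -0.09. Gspt1, the release factor eRF3a, had the smallest p, at 17.9, 18.5 and 22.5 CPM in HFD and 65.1, 63.4 and 61.5 CPM in HFD+allantoin livers (log2 1.69 ± 0.16, adjusted p = 0.00153). Paip2b, an inhibitor of poly(A)-binding protein, rose from 4.37, 9.09 and 6.86 CPM to 23.2, 28.7 and 21.3 CPM (log2 1.84 ± 0.27, adjusted p = 0.00396). Pdcd4, an inhibitor of eIF4A, rose from 30.5, 34.9 and 47.7 CPM to 76.5, 74.9 and 70.7 CPM (log2 0.97 ± 0.19, adjusted p = 0.00934). Of the 10 regulators of eIF4 on the list, Paip2b and Pdcd4 were called, and 7 of the 10 had a log2 fold change below 0. Gfm1, the mitochondrial counterpart of eEF2, rose by log2 1.01 ± 0.19 (adjusted p = 0.00821). Deptor, an mTORC1 inhibitor, rose by log2 0.61 ± 0.16 (adjusted p = 0.0231). It did not pass without HFD replicate 2 (adjusted p = 0.0528), without HFD+allantoin replicate 4 or 5 (0.0927 and 0.111) or after the correction for length and GC content (0.11). Dohh, which completes the hypusine of eIF5A, fell from 13.4, 13.6 and 14.2 CPM to 6.89, 7.34 and 5.53 CPM (log2 -1.06 ± 0.20, adjusted p = 0.00841), a call lost with the length and GC trend taken out (adjusted p = 0.0588). The other calls were Rps6kb2, lower, and Mtrf1, higher. Of the 6 genes of eIF2 kinases and their opposing phosphatase subunits edgeR called 0, with 2 at an unadjusted p under 0.05, and DESeq2 called 1. Of the 6 diphthamide genes, which modify eEF2, 0 were called by edgeR, DESeq2 or limma-voom, with 1 at an unadjusted p under 0.05.

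Some factor genes share sequence or position with others, and the settings by which reads were assigned are not given. Eif3j1 and Eif3j2 were 99.4% identical over 2379 bases, so the split between them is uncertain. Eif4a1 and Eif2s2 have near-identical copies (at least 95% over at least 200 bases) that held counts equal to 12.2% and 10.97% of their own, whereas for Eef1a1, with 9 such copies, this was 0.595%. Eif2s3x had a copy with 3.43%, and its transcript was 86.4% identical to that of Eif2s3y over 1426 bases, below that limit. Eef1d overlaps Naprt on the same strand, which held 8539 counts in all libraries beside 6032 of Eef1d. Eif5b overlaps Rev1 on the opposite strand, which held 482 counts beside 8784. The part of such reads in the differences was not tested.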

How the data were processed

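Raw read counts per gene, deposited by the authors for 6 liver libraries (SMARTer mRNA-seq kit, Illumina HiSeq, filtered reads), were used as they stand. The submitters' processing notes name GRCm38 and mm10; the aligner, the counting tool and the strand setting are not given in the sources used here. Symbols, positions and lengths came from GENCODE M21 (54495 of 54532 Ensembl identifiers found); 429 features without such an identifier, 0.197% to 0.306% of counts, were left out. Groups followed the labels, which give no batch or pairing, so p-values measure the spread between 3 mice per group.

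Counts were filtered (filterByExpr), normalized (TMM) and tested with edgeR 4.0.16 in R 4.3.3 (quasi-likelihood, two-sided, Benjamini-Hochberg over 12795 genes). The procedure was run on simulated counts in which 200 genes were changed by log2 2 in either direction. These had no length trend and no group difference in mitochondrial share, so they do not test it under those conditions or for smaller changes. CPM are TMM-normalized, standard errors follow from the F statistic, and lengths are those of the longest basic protein-coding transcript. The results were recomputed with RLE, upper-quartile or library-size scaling, with DESeq2 1.42.0 and limma-voom (limma 3.58.1), without the low-count filter or with a minimum of 10 counts per library, with the mitochondrial chromosome left out, with each library's trend in length and GC content taken out (splines, 5 degrees of freedom each), without each library in turn, and at an adjusted p under 0.01. Copies were searched with BLAST 2.17.0 (95% identity, 200 bases).

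Genes planned to be named with values were the called factors, 20 factors listed by name, and the 6 pathway genes with the smallest p. Further factor genes given with values were outside these lists and were added later. Among them were Eif1ax, Eif2s2, Eif2s3y, Eif2b4, Eif3b, Eif3d, Eif3g, Eif3h, Eef1e1 and Eef2kmt. The members and lists were chosen with earlier results of these data known. Counting intervals were not needed, since comparisons rest on the spread between mice.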

Additional observations from a re-analysis of the deposited data

How the results depend on the processing

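The count of factor genes called higher (10) ran from 8 to 14 under the other scalings, tests, filters and the length and GC correction, and that of genes called lower (7) from 7 to 8, except for library-size scaling (1) and the length and GC correction (4). Over all tested genes 24.7% were called higher and 5.27% lower under library-size scaling, and 10.7% and 11.5% after the length and GC correction. At an adjusted p under 0.01, 2 were higher and 2 lower, beside 3.46% and 4.48% of all tested genes. Leaving out 1 library gave 1 to 12 higher and 1 to 8 lower, with the lowest counts, 1 and 1, without HFD+allantoin replicate 5 and 2 and 1 without replicate 4; the count over all genes fell as well, to 460 higher and 564 lower without replicate 5. All 17 called genes kept their direction in the 15 alternative fits, and Eif2s3x and Eif5b were called in each. Fewer samples leave less power, and the cause of the single losses was not tested. Over all single genes named and all these fits, 477 values kept their direction and their side of the threshold, 64 lost a call, 6 gained it and 7 changed sign.

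Scaling by library size alone moved the median of all tested genes by 0.41 (log2), to 0.38. It moved the median of the factor genes to 0.54 and the medians to 0.64 for eEF1, 1.37 for eEF2, 0.20 for eIF1 and eIF1A, 0.91 for eIF2, 0.35 for eIF2A and eIF2D, 0.23 for eIF2B, 0.58 for eIF3, 0.55 for eIF4A and its partners, 0.52 for eIF4E, 0.075 for the eIF4E-binding proteins, 1.10 for eIF4G, 0.60 for eIF5 to eIF6 and 0.48 for the modifying enzymes. Relative to the median of all genes, that of the factor genes was 0.16 in the main fit and 0.15 under this scaling. Under it Eif4a1 (0.083) and Eif4ebp1 (0.075) changed sign.

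With the length and GC trend taken out, the eIF3 median was 0.031, and Eif3a (-0.0040), Eif4e (-0.082) and Eif5 (-0.083) changed sign. Eif2b5 did so without HFD replicate 1 (-0.069; 0.12 at the most with another library left out), and Eif4e without HFD replicate 2 (-0.023; up to 0.48). The eIF2B median ran from -0.24 to -0.12 with 1 library left out, and the median of the binding proteins was 0.090 at 10 counts or more in every library, which leaves out Eif4ebp3. Pathway genes called higher (6) numbered 15 with library-size scaling and 11 without a filter, beside 24.7% and 7.71% of all genes. Those called lower (2) numbered 0 with library-size scaling (5.27% of all genes) and 1 at an adjusted p under 0.01 (4.48%). With 1 library left out they numbered 1 to 5 (4.27% to 15.2% of all genes). Of the 10 genes with the highest level per length, 7 were also among the 10 highest by the median transcript length. No paired analysis was possible because the groups share no replicate number.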
